A study of Sus scrofa with 18 samples.

Results

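Node of Ranvier and axon domain genes were taken as a list of 9 genes: NFASC, NRCAM, ANK3, SPTBN4, CNTN1, CNTN2, CNTNAP1, CNTNAP2 and EPB41L3. A gene was counted as a member where its name in the deposited gene table equalled one of these symbols, which held for 7 of the 9 among 31908 genes. ANK3 and CNTNAP2 were missing by name. ANK3 was found through a table of gene names that pairs it with ENSSSCG00000010212, a gene the file leaves unnamed. CNTNAP2 had no name in either source, and ENSSSCG00000034739, an unnamed gene at its locus, is described in its place. Counts of members below are over the 7 named genes.

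RNA was measured in whole fetal brains of domestic pigs (Sus scrofa), from Landrace x Large White gilts bred to the LR-M6 line by artificial insemination. The 18 libraries fall into 6 groups, female and male fetuses on gestation day (GD) 45, GD60 and GD90, with 3 fetuses in each group and no treatment. Each library is 1 fetus, and the labels do not name the dams, so litter mates may be among the fetuses and p-values measure the spread between these libraries. Whole brain mixes neurons, glia, vessels and meninges, so that fewer cells of a type and less RNA per cell cannot be told apart in any value below.

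Axons are divided into domains. At the axon initial segment and at the node of Ranvier, neurofascin and NrCAM are tied to ankyrin-G and beta-IV spectrin, which hold the voltage-gated sodium and KCNQ potassium channels in place. At the paranode, Caspr and contactin-1 on the axon bind glial neurofascin and are tied to protein 4.1B, and at the juxtaparanode TAG-1 and Caspr2 gather the Kv1 potassium channels. Nodes, paranodes and juxtaparanodes form where oligodendrocytes wrap axons with myelin, whereas several of the same proteins act earlier in axon growth and migration.

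All positions are on Sscrofa11.1. NFASC (ENSSSCG00000022951) lies at chr9:65502252-65713548 on the plus strand and CNTN2 (ENSSSCG00000040824) beside it at chr9:65737719-65776308 on the same strand. NRCAM (ENSSSCG00000015445) lies at chr9:107928867-108247680 on the minus strand, CNTN1 (ENSSSCG00000000789) at chr5:72168511-72495633 on the plus strand and CNTNAP1 (ENSSSCG00000017393) at chr12:20141641-20157044 on the minus strand. SPTBN4 (ENSSSCG00000037494) and EPB41L3 (ENSSSCG00000003687) lie on chromosome 6, at chr6:48729750-48812796 and chr6:101420396-101671170, both on the plus strand. ANK3 lies at chr14:63415226-64194021 on the minus strand. The unnamed gene at the CNTNAP2 locus, chr9:109740510-109809922 on the minus strand, has 97.4% of its 5085 exonic bases inside exons of CNTNAP2 in the RefSeq annotation of the same build, in 4 exons, whereas RefSeq gives CNTNAP2 27 exons that reach chr9:111781144.

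For 4 of these genes 1 coding exon is shown, the exon of at most 260 bases with the highest count among those whose ends are the same in the deposited table and in RefSeq. They were chosen because CNTNAP1 rose most, CNTN2 fell, NFASC varied most between libraries, and the unnamed gene stands in for CNTNAP2. The exon shown for the unnamed gene held 2.19% of that gene's exon counts. Capitals mark the exon and lower case 20 bases of intron on each side. The exons lie at chr12:20147130-20147369 (minus strand), chr9:65770049-65770235 (plus), chr9:65688712-65688957 (plus) and chr9:109774047-109774286 (minus).
CNTNAP1: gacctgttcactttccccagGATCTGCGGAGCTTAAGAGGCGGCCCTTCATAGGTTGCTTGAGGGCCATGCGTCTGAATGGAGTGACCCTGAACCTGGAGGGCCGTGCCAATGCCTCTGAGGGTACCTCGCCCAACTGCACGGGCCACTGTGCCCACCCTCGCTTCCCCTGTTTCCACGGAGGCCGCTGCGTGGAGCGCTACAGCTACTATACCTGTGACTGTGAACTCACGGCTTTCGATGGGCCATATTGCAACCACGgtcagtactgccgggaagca
CNTN2: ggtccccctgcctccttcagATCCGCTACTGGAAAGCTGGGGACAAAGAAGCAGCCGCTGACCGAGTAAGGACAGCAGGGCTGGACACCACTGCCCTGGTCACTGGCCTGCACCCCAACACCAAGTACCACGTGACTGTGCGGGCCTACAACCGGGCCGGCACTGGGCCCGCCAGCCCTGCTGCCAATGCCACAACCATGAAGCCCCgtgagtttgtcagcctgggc
NFASC: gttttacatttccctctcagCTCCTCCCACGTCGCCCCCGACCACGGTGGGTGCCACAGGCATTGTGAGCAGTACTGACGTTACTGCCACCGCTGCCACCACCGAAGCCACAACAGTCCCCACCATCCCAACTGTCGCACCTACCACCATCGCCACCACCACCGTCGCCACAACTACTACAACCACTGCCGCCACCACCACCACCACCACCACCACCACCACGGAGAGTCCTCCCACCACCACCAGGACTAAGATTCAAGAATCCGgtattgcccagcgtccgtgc
CNTNAP2 locus: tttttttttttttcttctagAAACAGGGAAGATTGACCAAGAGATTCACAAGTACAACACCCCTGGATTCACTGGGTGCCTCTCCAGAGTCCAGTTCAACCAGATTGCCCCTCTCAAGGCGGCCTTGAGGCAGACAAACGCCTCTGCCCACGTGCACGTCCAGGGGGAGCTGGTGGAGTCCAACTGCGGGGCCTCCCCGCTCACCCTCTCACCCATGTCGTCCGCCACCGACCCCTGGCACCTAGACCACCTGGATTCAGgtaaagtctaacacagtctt
The CNTNAP1 exon was counted 5 to 23 times per library at GD45 (median 11), 12 to 28 times at GD60 (median 19) and 57 to 108 times at GD90 (median 80), so that every GD90 library was above every earlier one. The CNTN2 exon was counted 7 to 95 times at GD45, 25 to 101 at GD60 and 25 to 94 at GD90, and its counts overlapped between all days. The NFASC exon ranged from 2 to 20 counts at GD45, 8 to 55 at GD60 and 6 to 57 at GD90. The exon at the CNTNAP2 locus ranged from 3 to 65 at GD45, 15 to 81 at GD60 and 10 to 133 at GD90. These are raw counts, not scaled for the depth of the libraries.

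The gene table held 15118843 to 19729783 counts per library (median 16413097). Members are given as CPM, read counts scaled by library size with trimmed mean of M-values (TMM) factors, and the lowest count behind a member's value was 157, for CNTNAP1. Libraries also differed in how far their counts reached from the 3′ end of transcripts. The share of exon counts lying more than 3 kb from the 3′ end, averaged over 3147 long genes, was 30.9% to 41.2% at GD45, 35.2% to 43.8% at GD60 and 35.6% to 44.9% at GD90. It was lowest in male GD45 replicate 17 and highest in the 3 male GD90 libraries (44.1% to 44.9%), while the female GD90 libraries had 35.6% to 42.5%. This far share moved with 5 of the 7 members, and values with it as a covariate in the model, a fit chosen after seeing the data, are given beside the results where they moved a call or a value most. With the share in the model, 41.1% of all 16325 genes tested had a slope on it at an adjusted p under 0.05.

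Per base of annotated exon the order of the members changed between days. FPKM divides by the whole exonic length, from 6001 bases for CNTNAP1 to 9274 for NFASC among the named members. It makes no allowance for the far share, so ranks between genes of unlike length are not firm. At GD45 CNTN2, encoding TAG-1, an adhesion molecule of growing axons, had the highest mean level (40.2 ± 7.58 FPKM, SD, n = 6) and CNTNAP1, encoding Caspr, the lowest (2.49 ± 0.3). The CNTN2 libraries, 31.7 to 52.2 FPKM, were above every library of the other named members, and the CNTNAP1 libraries, 2.03 to 2.82 FPKM, below all of them. CNTN1 (8.19 to 19.1 FPKM), NFASC (4.22 to 17.8), NRCAM (9.63 to 12.2), EPB41L3 (5.26 to 12.9) and SPTBN4 (6.98 to 9.05) lay between with ranges that overlapped from neighbour to neighbour. At GD90 CNTN1 was highest (73.9 ± 13.1 FPKM), and its lowest library, 57.6, was above every library of any other member. CNTN2 (25.9 ± 5.50), EPB41L3 (24.5 ± 2.38), NFASC (24 ± 10.1), SPTBN4 (21.9 ± 4) and NRCAM (21.8 ± 5.42) were not separated from one another. CNTNAP1 remained lowest of the named members by its mean at 17.9 ± 1.79, but its range now overlapped theirs except for CNTN1 and EPB41L3. Of its 6001 exonic bases, 1635 are shared with genes on the other strand. Whether reads there were counted is not given in the sources used here, so its rank at GD90 is not firm. ANK3 ranged from 6.56 to 12.1 FPKM at GD45 and from 11.4 to 14.7 at GD90. The gene at the CNTNAP2 locus was at 29.5 ± 3.82 at GD45 and 29.5 ± 1.63 at GD90, over its 4 annotated exons.

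**Figure D1:**
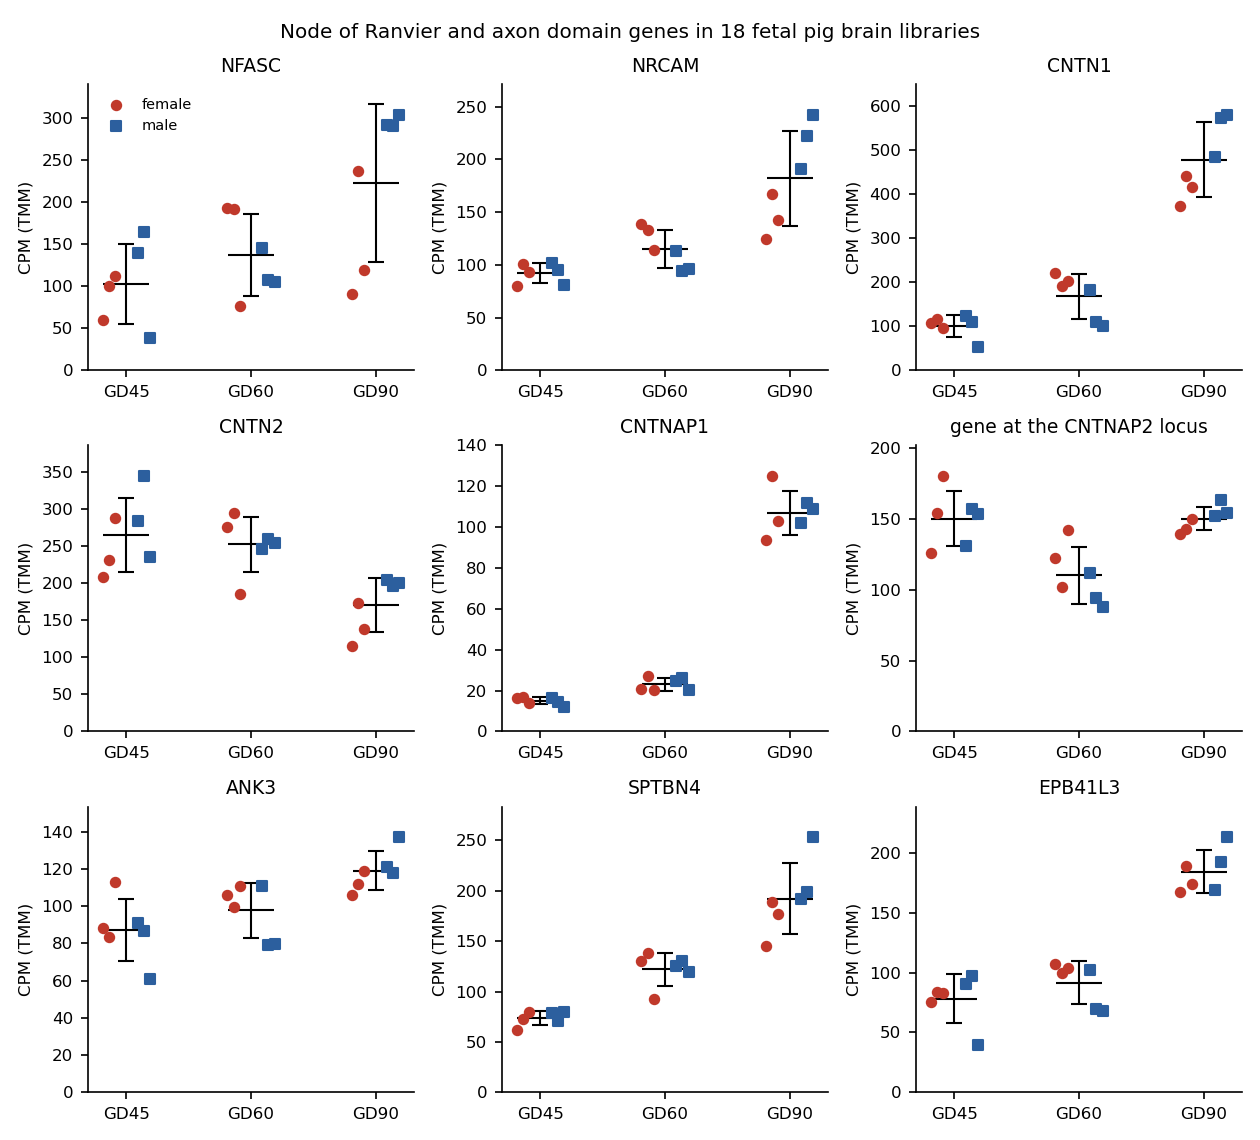
CPM of each gene (TMM-scaled, vertical axes from 0) in the 18 libraries by gestation day, with circles for females, squares for males, and black lines for the mean ± SD of the 6 libraries of a day. The CNTNAP1 libraries lie at 12.2 to 26.9 CPM at GD45 and GD60 and at 93.8 to 125 at GD90, while those of CNTN2 run from 116 to 204 CPM at GD90 and from 186 to 345 before, and those of NFASC spread widely on every day.

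Between GD45 and GD60, 4 of the 7 members rose and none fell, where 16.7% of all genes tested passed the same test (9.35% higher). They were the paranodal pair CNTN1 and CNTNAP1, the spectrin SPTBN4 and the adhesion molecule NRCAM. Between GD60 and GD90, 6 of 7 passed, 5 higher and CNTN2 lower, where 42.4% of all genes passed (21.4% higher and 20.9% lower). The median log2 fold change of the 7 was 0.41 and 0.64 in the 2 periods, beside -0.01 for all genes in each.

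The adhesion molecules of the node differed in how firmly their changes stood. NRCAM, which helps gather sodium channels at forming nodes, was at 80.3, 94.3 and 102 CPM (lowest, median and highest of 6 libraries) at GD45, 94.4, 114 and 139 at GD60, and 125, 179 and 242 at GD90. The GD90 libraries overlapped those of GD60 in part and none of GD45. Its rise to GD60 was 1.24-fold (log2 0.31 ± 0.0997 SE, adjusted p = 0.0435) and was lost when any 1 of 12 of the 18 libraries was left out (adjusted p 0.05 to 0.115) and with the far share in the model (log2 0.21, adjusted p = 0.0524). Its rise to GD90 was 1.56-fold (log2 0.64 ± 0.0998, adjusted p = 7.23e-05), and 0.55 with the far share in the model (adjusted p = 6.37e-06).

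NFASC, encoding the neuronal and glial forms of neurofascin, was at 39.1, 106 and 165 CPM at GD45, 76.7, 127 and 194 at GD60, and 91.3, 264 and 304 at GD90. Libraries of all 3 days overlapped. Neither period passed the test, with log2 fold changes of 0.41 ± 0.314 (adjusted p = 0.409) and 0.63 ± 0.314 (adjusted p = 0.118). Its SD within groups, 0.67 on the log2 CPM scale, exceeded that of 90.7% of the genes tested, whose median was 0.28. The 3 male GD90 libraries had 291, 292 and 304 CPM and the 3 female ones 91.3, 120 and 237.

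NFASC also had the steepest slope of the members on the far share, 0.193 log2 units per percentage point (adjusted p = 7.88e-09). Male GD45 replicate 17 had the lowest NFASC level and the lowest far share, and the 3 male GD90 libraries had the 3 highest of both. With the far share in the model the change to GD60 was -0.01 ± 0.0853 and that to GD90 0.19 ± 0.0853 (adjusted p = 0.0763), so the SE fell with it. Exon counts of NFASC beyond 3 kb came to 4.54% to 17.8% of its gene counts. Exon and gene counts are separate, with medians of 8039221 and 16413097 per library. The percentage is thus not the share of NFASC reads that lay beyond 3 kb. The counts beyond 3 kb ran from 24 to 246 at GD45, from 109 to 488 at GD60 and from 116 to 828 at GD90.

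**Figure D2:**
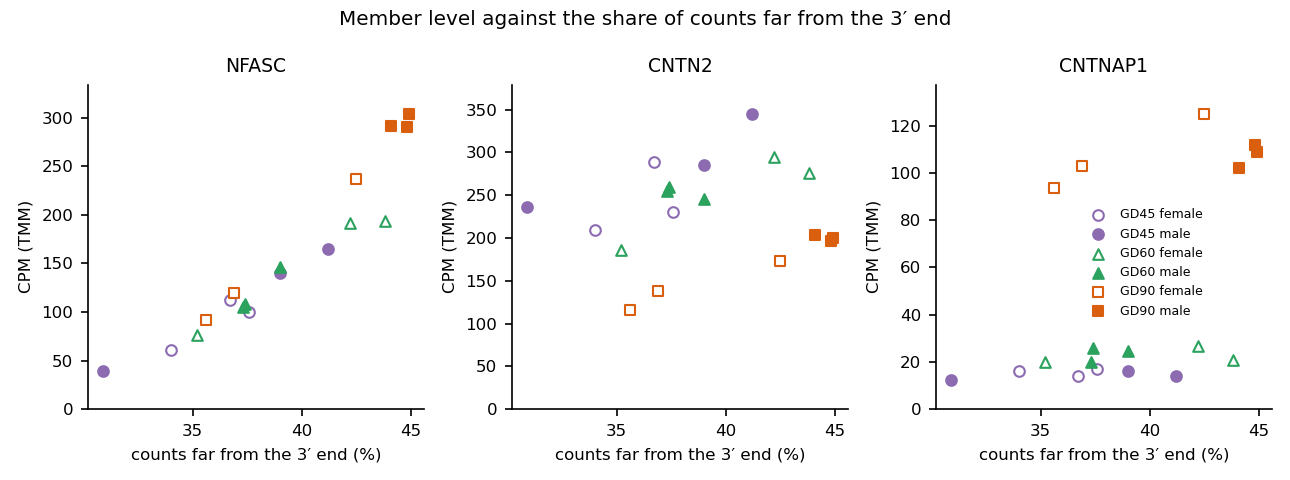
CPM of NFASC, CNTN2 and CNTNAP1 (vertical axes from 0) against the percentage of each library's exon counts more than 3 kb from the 3′ end, with 1 point per library, shapes for gestation days and filled points for males. NFASC points climb with the share across all days, the CNTN2 points of GD90 (116 to 204 CPM) overlap the earlier ones (186 to 345) at their edge, and every CNTNAP1 point of GD90 (93.8 to 125 CPM) lies above the earlier ones.

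The contactins went in opposite directions after GD60. CNTN1, the axonal partner of Caspr at the paranode, was at 53.0, 108 and 124 CPM at GD45, 101, 187 and 221 at GD60, and 373, 464 and 580 at GD90. The GD45 and GD60 libraries overlapped, and every GD90 library was above both. It rose 1.63-fold to GD60 (log2 0.70 ± 0.175, adjusted p = 0.0106) and 2.89-fold to GD90 (log2 1.53 ± 0.177, adjusted p = 3.63e-06). With the far share in the model the changes were 0.57 (adjusted p = 0.00657) and 1.39 (adjusted p = 3.07e-07).

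CNTN2 was at 209, 260 and 345 CPM at GD45, 186, 257 and 295 at GD60, and 116, 185 and 204 at GD90. The first 2 days overlapped nearly throughout, and of the GD60 libraries 1, female replicate 15 at 186 CPM, lay within the GD90 range. Its change to GD60 was -0.07 ± 0.129 (adjusted p = 0.779, 95% interval -0.32 to 0.19). To GD90 it fell 1.50-fold (log2 -0.58 ± 0.130, adjusted p = 0.00164), the one member that fell. With the far share in the model it was -0.23 to GD60 (adjusted p = 0.0502) and -0.72 to GD90 (adjusted p = 6.17e-07). Exon counts of CNTN2 beyond 3 kb came to 2.41% to 22.2% of its gene counts, which are separate and so give no share along the gene. Raw counts beyond 3 kb in males were 383 to 529 at GD60 and 676 to 702 at GD90, and so did not fall. In females they were 234 to 901 at GD60 and 140 to 477 at GD90.

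CNTNAP1 had the largest change of the members. Its product Caspr spans the axonal membrane at the septate-like junctions of the paranode. It was at 12.2, 15.2 and 16.9 CPM at GD45, 20.1, 22.9 and 26.9 at GD60, and 93.8, 106 and 125 at GD90. No library of any day overlapped one of another day. The rises were 1.54-fold (log2 0.63 ± 0.110, adjusted p = 0.000778) and 4.65-fold (log2 2.22 ± 0.111, adjusted p = 3.77e-10), and 0.54 and 2.14 with the far share in the model. CNTNAP1 shares 1635 exonic bases with genes on the other strand, CCR10 and EZH1, and whether the counting used strand is not given in the sources used here. The 18 CNTNAP1 exons of the exon table that share no base with another gene gave 4.05 ± 1.32 CPM at GD45, 8.44 ± 2.16 at GD60 and 40.0 ± 9.30 at GD90 (SD, n = 6). Over these exons the GD90 libraries (24.4 to 48.6) again lay above all earlier ones, but those of GD45 (2.02 to 6.06) and GD60 (5.43 to 11.8) overlapped.

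The unnamed gene at the CNTNAP2 locus followed another course. Caspr2, the product of CNTNAP2, holds Kv1 channels at the juxtaparanode. The gene was at 126, 154 and 180 CPM at GD45, 87.6, 107 and 142 at GD60, and 139, 151 and 163 at GD90. It fell 1.37-fold to GD60 (log2 -0.46 ± 0.101, adjusted p = 0.00473) and rose 1.37-fold to GD90 (log2 0.46 ± 0.101, adjusted p = 0.00168). Its slope on the far share was -0.006 (adjusted p = 0.758). These values describe 4 exons at the 3′ end of the locus only, and the other genes annotated there held 0 to 401 counts each in all 18 libraries together.

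Of the cytoskeletal scaffolds, SPTBN4 rose in both periods, EPB41L3 passed from GD60 to GD90, and ANK3 passed in neither. SPTBN4, encoding beta-IV spectrin, which anchors ankyrin-G at nodes and initial segments, was at 61.5, 75.5 and 79.6 CPM at GD45, 92.3, 128 and 138 at GD60, and 145, 190 and 253 at GD90. The days did not overlap. Its rises were 1.66-fold (log2 0.73 ± 0.112, adjusted p = 0.000254) and 1.56-fold (log2 0.64 ± 0.111, adjusted p = 0.000195), and its slope on the far share did not pass the test (adjusted p = 0.123).

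EPB41L3, encoding protein 4.1B, which ties Caspr to the cytoskeleton, was at 39.5, 83.4 and 96.8 CPM at GD45, 67.6, 101 and 107 at GD60, and 167, 181 and 213 at GD90. The first 2 days overlapped and GD90 lay above both. Its change to GD60 was 0.22 ± 0.166 (adjusted p = 0.414), and it rose 2.02-fold to GD90 (log2 1.02 ± 0.167, adjusted p = 0.000124). With the far share in the model these were 0.09 (adjusted p = 0.663) and 0.86 (adjusted p = 2.38e-05).

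ANK3, encoding ankyrin-G, which organizes the initial segment, was at 61.1, 87.4 and 113 CPM at GD45, 79.1, 103 and 111 at GD60, and 106, 119 and 137 at GD90. The GD60 range lay inside that of GD45, and GD90 overlapped both. Its changes, 0.17 ± 0.116 (adjusted p = 0.362) and 0.28 ± 0.115 (adjusted p = 0.0578), did not pass the test. The second passed under 8 of the 30 alternatives, such as DESeq2 (adjusted p = 0.0401).

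**Figure D3:**
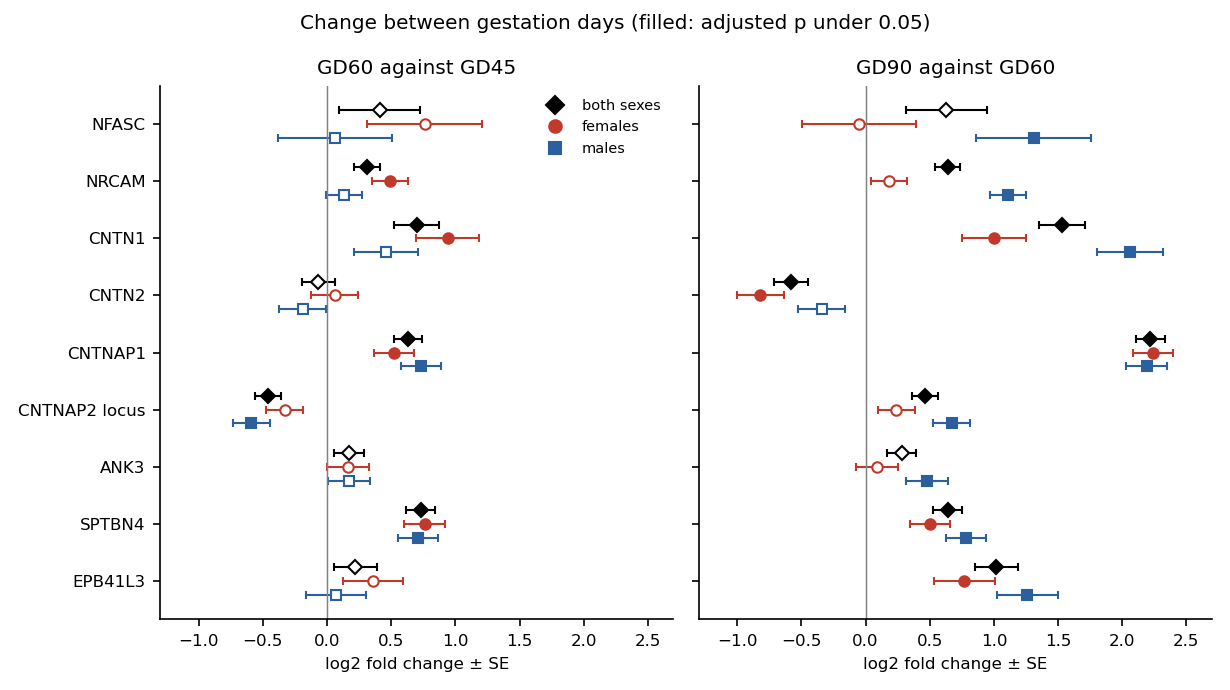
Log2 fold change ± SE of each gene for GD60 against GD45 (left) and GD90 against GD60 (right), for both sexes together (black), females (red) and males (blue), with filled symbols at an adjusted p under 0.05. CNTNAP1 and CNTN1 changed most after GD60, at 2.22 and 1.53, and CNTN2 lies below 0 there.

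Within each sex the same periods were compared over 3 against 3 libraries. In females 4 of the 7 members rose to GD60, CNTN1, CNTNAP1, NRCAM and SPTBN4 (7.22% of all genes passed), and in males 2, CNTNAP1 and SPTBN4 (5.61%). With 1 library left out, the female count was 1 to 4 and the male count 0 to 2. To GD90, 5 passed in females, with CNTN1, CNTNAP1, EPB41L3 and SPTBN4 higher and CNTN2 lower (27.1%), and in males 6, all higher, with CNTN2 at -0.34 not passing (34.5%, and 18.5% higher). NRCAM in males went from 94.4, 96.6 and 113 CPM at GD60 to 191, 222 and 242 at GD90, a 2.15-fold rise (log2 1.11 ± 0.142, adjusted p = 2.75e-05). In females it went from 114, 133 and 139 to 125, 143 and 167, which overlapped (log2 0.18 ± 0.141, adjusted p = 0.38). CNTNAP1 changed by 2.24 ± 0.157 in females and 2.19 ± 0.157 in males.

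The far share moved several of these values from GD60 to GD90. NFASC in males was at 1.31 ± 0.449 (adjusted p = 0.0328), a call lost without any 1 of 5 male libraries, GD60 replicate 6 or 16 or GD90 replicate 1, 8 or 10 (adjusted p 0.0637 to 0.109), and at 0.03 with the far share in the model (adjusted p = 0.91). In females NFASC was at -0.05 (adjusted p = 0.956), and at 0.35 with the far share in the model (adjusted p = 0.0235). CNTN2 in males was at -0.34 (adjusted p = 0.154), and at -0.76 with the far share in the model (adjusted p = 0.000319), so that in that fit the male calls were not all higher. In females from GD45 to GD60, NRCAM and CNTNAP1 lost their calls in that fit (adjusted p = 0.0626 and 0.0941).

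No member's change differed between the sexes in the test of the interaction, by edgeR's quasi-likelihood test, in either period (0% of all genes passed). At an unadjusted p under 0.05 there were 0 of 7 members from GD45 to GD60, beside 333 of all 16325 genes. From GD60 to GD90 there were 3 of 7, CNTN1, NFASC and NRCAM, beside 3232 of 16325. The likelihood ratio test and DESeq2 each called 1 in the later period. NRCAM had the lowest p of them, with a difference of 0.93 ± 0.199 between the male and the female change (adjusted p = 0.175), or 0.58 with the far share in the model (adjusted p = 0.407). For NFASC the difference was 1.35 ± 0.627 (adjusted p = 0.248) and -0.32 with the far share in the model. The far share of the GD90 males, above that of every GD90 female, moved with these differences, and its part in them was not tested beyond that fit.

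Males against females on 1 day gave 0 of 7 members at each day by the same test, where 0.0919% of all genes passed at GD45 and 0.098% at GD60 and at GD90. At an unadjusted p under 0.05 there were 0, 2 and 4 members, beside 423, 784 and 2213 of all 16325 genes. DESeq2 called 0, 0 and 1 members. At GD90 the NRCAM libraries of males, 191 to 242 CPM, lay above those of females, 125 to 167 (log2 0.59 ± 0.141, adjusted p = 0.298), as did those of CNTN1, CNTN2, NFASC and SPTBN4. The share of all genes separated in this way is not reported here, so this is a description only. The male libraries also had the higher far share, and with it in the model the differences went from 0.59 to 0.34 for NRCAM, from 0.41 to 0.03 for CNTN1, from 0.49 to 0.12 for CNTN2, from 0.99 to -0.11 for NFASC and from 0.33 to 0.16 for SPTBN4. CNTNAP1 differed by 0.01 ± 0.149 there (95% interval -0.28 to 0.30).

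Exon usage, the change of 1 exon against the rest of its gene, showed no call among the members. Only 25 of 39 NFASC exons and 12 of 30 CNTNAP1 exons were tested. The NFASC exon shown above had 2 to 57 counts per library. A change of usage could thus have been missed. Of 138 member exons tested, 0 passed in either period by edgeR's diffSpliceDGE test, where 0.013% and 0.1% of all 76800 exons passed. At an unadjusted p under 0.05 there were 10 and 6, and limma's diffSplice called 0 and 0 (4 and 5 unadjusted). The share of all exons under that unadjusted threshold is not reported here. The lowest adjusted p, 0.422, belonged to a SPTBN4 exon at chr6:48768308-48769058, at 0.68 log2 above the rest of its gene at GD60 relative to GD45.

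Channels held at nodes and initial segments were tested for 15 of 17 listed genes. For this and the later lists, values with the far share in the model or under the other alternatives were not examined. From GD45 to GD60, 7 rose and none fell (median 0.54), where 16.7% of all genes passed, and from GD60 to GD90, 10 rose and 1 fell (median 0.55), where 42.4% passed. SCN2B, a beta subunit of sodium channels, rose 4.91-fold to GD90 (adjusted p = 0.00191). It was low, at 0.384 to 1.98 CPM at GD60 and 1.92 to 7.68 at GD90, which overlapped. KCNK4, a leak potassium channel of nodes, rose 1.83-fold to GD60 (adjusted p = 1.85e-05). KCNK2, a related channel, fell 1.20-fold to GD90 (adjusted p = 0.0433). Outside the naming rule, and named after their values were seen, are SCN8A, the sodium channel of mature nodes, and SCN2A, that of early nodes. SCN8A went from a mean of 18.1 CPM (8.67 to 31.6) to 56.2 (14.8 to 101) after GD60, with overlap (adjusted p = 0.00617). SCN2A went from 88.3 CPM (61.8 to 111) to 201 (142 to 277), without overlap (adjusted p = 1.19e-05).

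Of 12 juxtaparanode genes, 6 rose to GD60 and all 12 to GD90, with medians of 0.51 and 0.85, beside 16.7% and 42.4% of all genes called. KCNA1 and KCNA2, the Kv1 channels of that domain, stayed low, at 3.72 to 10.6 and 1.32 to 7.09 CPM at GD90, after rises of 2.68-fold (adjusted p = 0.00641) and 3.29-fold (adjusted p = 0.000354). KCNAB1, their beta subunit, rose 2.11-fold to GD60 (adjusted p = 7.86e-06), and DLG2, a scaffold, 1.79-fold (adjusted p = 0.000624). Of 20 cytoskeletal and matrix partners, 9 rose to GD60, and 12 rose and 2 fell to GD90, against the same shares of all genes. HAPLN1 and TNR, of the extracellular matrix, rose 2.05-fold and 1.93-fold to GD60. HAPLN2, a link protein of nodal matrix, and OMG rose 7.89-fold and 4.46-fold to GD90, whereas the proteoglycan VCAN fell 2.08-fold and the adherens junction protein AFDN 1.67-fold. HAPLN2 was low on both days, at 0.104 to 0.898 CPM at GD60 and 2.49 to 5.51 at GD90.

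Paralogs of the members moved both ways. Of 16 tested, 6 rose and 1 fell to GD60, and 7 rose and 3 fell to GD90, beside 16.7% and 42.4% of all genes called. CNTN6, a contactin, rose 2.15-fold and then 1.98-fold (adjusted p = 0.000704 and 0.000398). SPTB, the beta spectrin of red cells, rose 1.91-fold to GD60, and EPB41L2 rose 2.45-fold to GD90. EPB41, encoding protein 4.1R, fell in both periods, 1.55-fold and 1.83-fold, and EPB41L4A fell 1.86-fold to GD90.

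Myelin and paranodal loop genes differed in level before GD90, with SIRT2 at 106 to 163 CPM over GD45 and GD60 and MOG at 0.0627 to 0.577, a pair chosen after its values were seen. Of 20 tested, 6 rose and 1 fell to GD60 (median 0.37), where 16.7% of all genes passed, and all 20 rose to GD90 (median 2.27), where 42.4% passed. The summed level of the 20 was 271 to 334 CPM at GD45, 327 to 377 at GD60 and 2525 to 4115 at GD90. MAG, which faces the axon from the myelin sheath, was at 0.403 to 1.89, 1.36 to 2.69 and 115 to 213 CPM, an 80.1-fold rise after GD60 (adjusted p = 3.79e-11). ERMN, a late oligodendrocyte gene, was at 0 to 0.18 CPM at GD60 and 7.55 to 11.8 at GD90, and CLDN11, a tight junction protein of myelin, fell 1.35-fold to GD60 (adjusted p = 0.037).

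**Figure D4:**
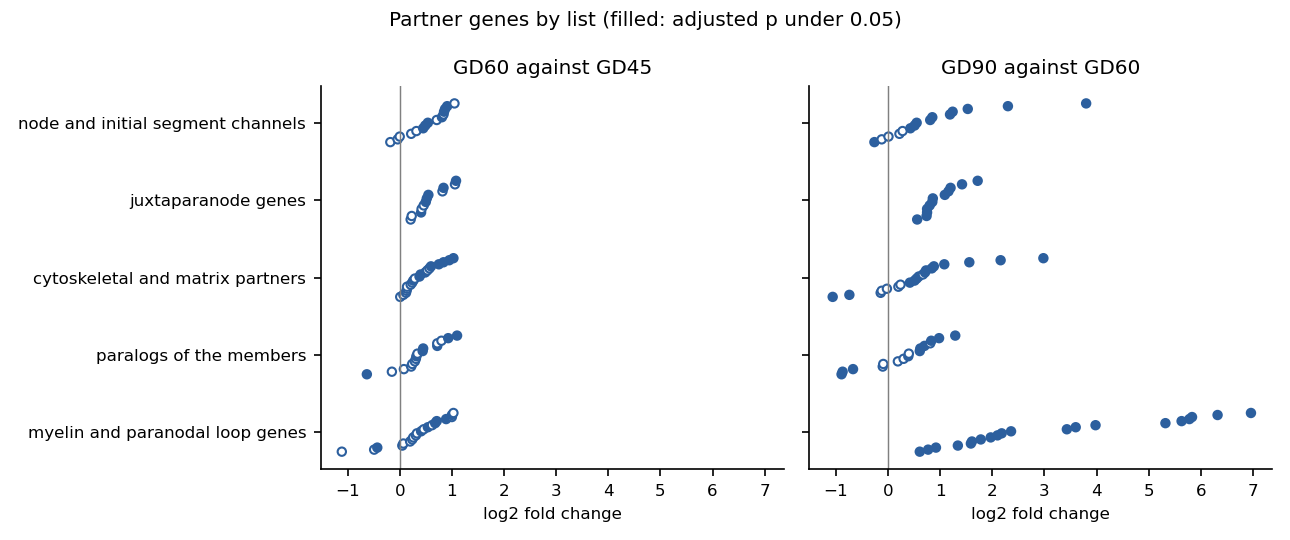
Log2 fold change of each tested partner gene for GD60 against GD45 (left) and GD90 against GD60 (right) by list, with 1 point per gene and filled points at an adjusted p under 0.05. All 12 juxtaparanode genes and all 20 myelin genes lie above 0 at GD90, and MAG stands at 6.32.

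Cell type markers moved in the same periods. From GD45 to GD60, 5 of 7 oligodendrocyte precursor markers, 2 of 6 astrocyte markers and 4 of 11 neuron markers tested rose, and 5 of 6 progenitor markers fell. Of all genes tested, 16.7% passed in that period (9.35% higher). From GD60 to GD90, 42.4% of all genes passed (21.4% higher and 20.9% lower). Summed over the list, 6 astrocyte markers were at 462 to 595 CPM at GD60 and 1662 to 2155 at GD90, and 7 oligodendrocyte precursor markers at 306 to 339 and 600 to 795, with all 6 and all 7 higher after GD60. The 11 neuron markers were at 7788 to 10808 and 8807 to 11342 CPM, with 6 higher and 1 lower after GD60, and 6 progenitor markers went from 828 to 984 CPM to 457 to 601, with all 6 lower. The 8 Schwann cell markers, which would mark peripheral nerve but share SOX10 with the oligodendrocyte lineage, were at 55.2 to 65 CPM at GD60 and 103 to 161 at GD90, and 2 of 6 tested were higher and 1 lower. The 7 microglia, 6 endothelial and mural, 5 erythroid, and 8 choroid plexus and meningeal markers had summed levels at GD90 of 156 to 242, 480 to 643, 94.3 to 174 and 1412 to 2002 CPM, beside 94.6 to 139, 364 to 513, 151 to 305 and 1407 to 1984 at GD60. After GD60, 6 of 7 microglia and 4 of 6 endothelial and mural markers were higher, and 3 of 5 erythroid markers lower. Of the 8 choroid plexus and meningeal markers, 4 were lower and 1 higher. The part of these cell types in the members' changes was not tested.

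The genes whose log2 CPM followed a member most closely over the 18 libraries were found among tested genes with a symbol, by Pearson's r, as a description. CNTNAP1 was followed by DUSP3 (r = 0.994) and MAP2K1 (0.992), CNTN1 by TRIM9 (0.993) and ANK2 (0.990), and CNTN2 by SCAF8 (0.969) and DLG5 (0.951). NFASC was followed by ARHGAP32 (0.985) and PRKCA (0.982), NRCAM by UNC80 (0.975) and RGS7BP (0.971), SPTBN4 by CACNA1G (0.982) and RASA3 (0.976), and EPB41L3 by NSF (0.986) and R3HDM1 (0.983). For ANK3 they were CCDC88A (0.932) and MCF2 (0.930), and for the gene at the CNTNAP2 locus FRZB (0.848) and MPP7 (0.840). The libraries differ in gestation day, depth and the far share, with which many genes move together, and the part of these in the correlations was not tested.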

How the data were processed

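RNA of 18 whole fetal brains was sequenced. The authors used Trimmomatic for trimming, HISAT2 for alignment to Sscrofa11.1 and featureCounts for counting, and deposited raw counts per gene, exon and transcript without normalization. The transcript table was not used. The 22 columns of counts hold 18 libraries, since 4 have a second run, whose counts were summed. Strand use and the handling of reads with several matches are not given in the sources used here.

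The tests on genes used edgeR 4.0.16 (R 4.3.3): filterByExpr kept 16325 of 31908 genes (99.9% of counts), TMM scaling was applied, 6 groups of sex and day were fitted, and the quasi-likelihood F test was used with Benjamini-Hochberg adjustment over all genes (threshold 0.05). Folds are 2 to the power of the fitted log2 fold change, 95% intervals are 1.96 SE on each side, and log2 CPM used a prior count of 2. FPKM values used the exonic length of the gene table. Exon usage was tested with diffSpliceDGE over 76800 exons. The far share was taken over genes with at least 4 kb of joined exon and 50 counts in every library. No molecular identifiers are named in the protocols, so reads are not independent molecules. On simulated counts with 200 genes changed by a log2 of 1 among 16325, the test of GD90 against GD60 recovered 76% with 8 false calls. The simulation had no litter or far share effect and far fewer changed genes than the 42.4% called in the data. Its rates therefore need not hold for the tests above.

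All 9 listed genes were described. From each gene list, the 2 largest rises and the 2 largest falls per period among genes with an adjusted p under 0.05 and a mean of at least 1 CPM were named, and per member the 2 most alike genes. Some genes that this rule names are not reported here. The members and lists were chosen with earlier results of these data known. Alternatives were the likelihood ratio test, DESeq2 1.42.0, no TMM factors, 2 other filters, the length trend removed, only the groups compared, the litter as a block, groups by day alone, limma 3.58.1 for exons, and libraries left out. The far share as a covariate, and leaving out the 4 libraries with a far share under 36%, were added after seeing the data.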

Additional observations from a re-analysis of the deposited data

Results flagged for a closer look

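In 2 of 27 groups of 6 libraries (9 genes on 3 days), 1 library stood apart from the others by Dixon's test at the 95% level, where chance flags about 1 group in 20. Both were male GD45 replicate 17, the library with the lowest far share, 30.9%. CNTN1 was at 53.0 CPM there and 96.6 in the next lowest GD45 library. EPB41L3 was at 39.5 CPM there and 75.6 in the next lowest. Without this library the changes to GD60 were 0.54 for CNTN1 and 0.05 for EPB41L3 on the log2 scale, beside 0.70 and 0.22 with it. With the far share in the model they were 0.57 and 0.09.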

How the results depend on the processing

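The rises of CNTN1, CNTNAP1 and SPTBN4 in both periods, the rises of NRCAM and EPB41L3 and the fall of CNTN2 from GD60 to GD90 kept their direction and an adjusted p under 0.05 under all 30 alternatives run for them. The rise of NRCAM to GD60 lost it under 20 of 30, and NFASC and ANK3 gained a call from GD60 to GD90 under 4 and 8. NFASC from GD45 to GD60 was -0.01 with the far share in the model, and CNTN2 ran from -0.14 to 0.02 with 1 library left out, above 0 without female GD45 replicate 18, male GD45 replicate 14 or female GD60 replicate 15. The count of members called from GD45 to GD60 in females, 4, was 1 without TMM factors, 2 with no filter, 2 with only the groups compared, 2 with the far share in the model, and 1 to 4 with 1 library left out (1 without female GD45 replicate 12, 13 or 18 or female GD60 replicate 3 or 5, and 2 without male GD45 replicate 14, male GD60 replicate 6, female GD90 replicate 9 or male GD90 replicate 8 or 10). In males, 2, it was 0 with only the groups compared and 0 to 2 with 1 library left out (0 without male GD60 replicate 6). From GD60 to GD90 in females, 5, it was 3 without TMM factors and 3 to 5 with 1 left out (3 without female GD60 replicate 15 or female GD90 replicate 7 or 9). For males against females at GD90, 0, it was 2 with only the groups compared and 1 by DESeq2. For the interaction from GD60 to GD90, 0, it was 1 by the likelihood ratio test, 1 by DESeq2, 2 with only the groups compared, 2 without the GD45 litter of 8 (female replicate 18 and male replicate 17), 4 without the 4 libraries of low far share, and 0 to 2 with 1 left out (2 without male GD45 replicate 17, 1 without female GD60 replicate 15). The cause was not tested. Fetuses of 1 day with the same litter size were taken as possible litter mates: their deviations correlated at -0.093 to 0.424, over 0.1 in 5 of 9 pairs and so not in every pair, and they were not taken as paired. Whether they shared a dam is not given by the labels. With the litter as a replicate block, 3 members were called to GD60 and 6 to GD90. The 7 members had 157 to 9306 counts per library.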
